A study of Mus musculus with 3 samples.

Results

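The genes described here are 29 genes of cholesterol synthesis, its regulation, and the uptake and handling of the sterol, chosen by their known function. Of these, 28 were matched to at least 1 of 47 array probes, and all 28 were kept for testing among 13268 genes. Idi1, an isomerase of the mevalonate pathway, was matched to no probe. The mevalonate steps hold 7 of the genes, the steps from the making of squalene to cholesterol 11, the regulators 5, and uptake and handling 6.

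Cells build cholesterol from acetyl-CoA. The mevalonate steps make isoprenoid units, which are joined into squalene, closed into lanosterol and trimmed to cholesterol. When sterol is scarce in the endoplasmic reticulum, the escort protein SCAP carries the SREBP transcription factors to the Golgi, where they are released to activate these genes, and INSIG proteins hold the complex back when sterol is plentiful. In the fetal testis, Leydig cells turn cholesterol into androgens, beginning with its entry into mitochondria through the Star protein and its cleavage by CYP11A1.

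RNA came from male gonads of Cyp26b1-/- mouse embryos of the MCH line at E12.5 (E for embryonic day), a day later (E13.5) and a further day later (E14.5). All 3 groups lacked Cyp26b1, the P450 enzyme that degrades retinoic acid, so every comparison is between stages of the knockout. Control gonads were not analysed here. Each stage had 2 one-colour Agilent arrays, described in the series as biological duplicates. How many embryos went into an array is not given in the labels used here, and with so few arrays every value has limited precision. The E12.5 arrays shared 1 slide, and the remaining 4 arrays shared a second slide. A stage difference against E12.5 therefore cannot be told apart from a slide difference. Slides do not enter the comparison of E14.5 with E13.5.

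Levels are given as log2 signal minus the array's own 75th percentile, so that 0 is the 75th percentile of that array. Between 65.3% and 70.1% of probes were well above background on each array. The probe standing for each of the 28 genes was above background on all 6 arrays, and none was saturated. As a check of the tissue, 6 of 6 Sertoli cell markers and 6 of 6 germ cell markers were above background on all arrays, as were 5 of 6 fetal Leydig markers. Of 4 adrenal markers with a probe, Mc2r and Nr0b1 were above background on all 6 arrays, and Cyp21a1 and Cyp11b2 on 0 arrays. In whole gonads, fewer cells of a type and less RNA per cell cannot be told apart.

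Promoters of 4 genes that rose (below, E14.5 against E12.5) are shown as examples of the letters these genes carry ahead of their start sites. Each run is the 250 bases before the start site, 5′ to 3′ on the gene's strand, from RefSeq on build GRCm38.p6. Capitals mark TCACNCCAC, the letters of a sterol regulatory element, and CCAAT, which reads ATTGG where it lies on the opposite strand. Hmgcs1 (chr13:119690101-119690350, plus strand) was the only one of these genes with the sterol element letters, and Tm7sf2 (chr19:6067851-6068100, minus strand), Lss (chr10:76531355-76531604, plus strand) and Msmo1 (chr8:64733579-64733828, minus strand) were chosen after their values were seen.
Hmgcs1: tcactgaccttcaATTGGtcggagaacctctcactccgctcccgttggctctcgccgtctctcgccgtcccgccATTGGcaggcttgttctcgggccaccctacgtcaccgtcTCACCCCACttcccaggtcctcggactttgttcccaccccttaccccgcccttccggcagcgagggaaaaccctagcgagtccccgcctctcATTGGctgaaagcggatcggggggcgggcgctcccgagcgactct
Tm7sf2: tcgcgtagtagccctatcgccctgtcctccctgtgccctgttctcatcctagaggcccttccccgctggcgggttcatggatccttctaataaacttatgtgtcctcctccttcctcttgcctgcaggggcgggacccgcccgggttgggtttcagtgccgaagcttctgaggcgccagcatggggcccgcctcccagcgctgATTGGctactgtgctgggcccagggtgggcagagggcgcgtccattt
Lss: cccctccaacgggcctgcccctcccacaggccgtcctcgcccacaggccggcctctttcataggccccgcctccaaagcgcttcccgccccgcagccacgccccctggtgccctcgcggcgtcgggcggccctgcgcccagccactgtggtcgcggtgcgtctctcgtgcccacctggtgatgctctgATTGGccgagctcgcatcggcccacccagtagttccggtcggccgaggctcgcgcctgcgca
Msmo1: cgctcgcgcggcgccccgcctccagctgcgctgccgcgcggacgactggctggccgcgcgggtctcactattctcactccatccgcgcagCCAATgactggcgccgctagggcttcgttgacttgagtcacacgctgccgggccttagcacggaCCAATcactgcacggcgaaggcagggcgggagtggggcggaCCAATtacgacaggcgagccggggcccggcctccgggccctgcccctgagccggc

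RefSeq promoters of 300 bases (250 before and 50 after the start site) were found for 24 of the 29 genes, Idi1 included, and were searched on both strands. A gene with several start sites counted once if any of its promoters held a match. The CCAAT letters were found in 20 of the 24 genes (83.3%), against 41.1% of all 27025 genes with a promoter. By role, 14 of 15 synthesis genes held them, 4 of 5 regulators, and 2 of 4 uptake and handling genes. In the list of steroid synthesis genes used below, 3 of 8 did. TCACNCCAC was found in 1 of 24 (4.17%), against 1.44% of all genes. AAGGTCA, the letters bound by the steroidogenic factor SF1, was found in Hmgcs1 and Dhcr7 (8.33%), against 5.38% of all genes. No match of one motif overlapped a match of another in Hmgcs1. These matches are descriptions of letters, not of sites in use. Fdps, Fdft1, Sqle, Npc1 and Stard4 had no promoter in the table.

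Most genes of cholesterol synthesis stood higher at the end of the window than at its start. At E14.5 against E12.5, 15 of 28 genes rose, 1 fell (Soat1) and 12 did not pass limma's test, with a threshold of 0.05 on the Benjamini-Hochberg adjusted p. Among all 13268 genes, 46.3% passed, 25.6% higher and 20.8% lower. The median log2 difference of the 28 genes was 0.54, against 0.03 for all genes. By role, 12 of 17 measured synthesis genes rose and 0 fell (median 0.69), 1 of 5 regulators rose (median 0.17), and of 6 uptake and handling genes 2 rose and 1 fell (median 0.05). Whether synthesis genes differed from the other genes as a group was not tested.

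**Figure D1:**
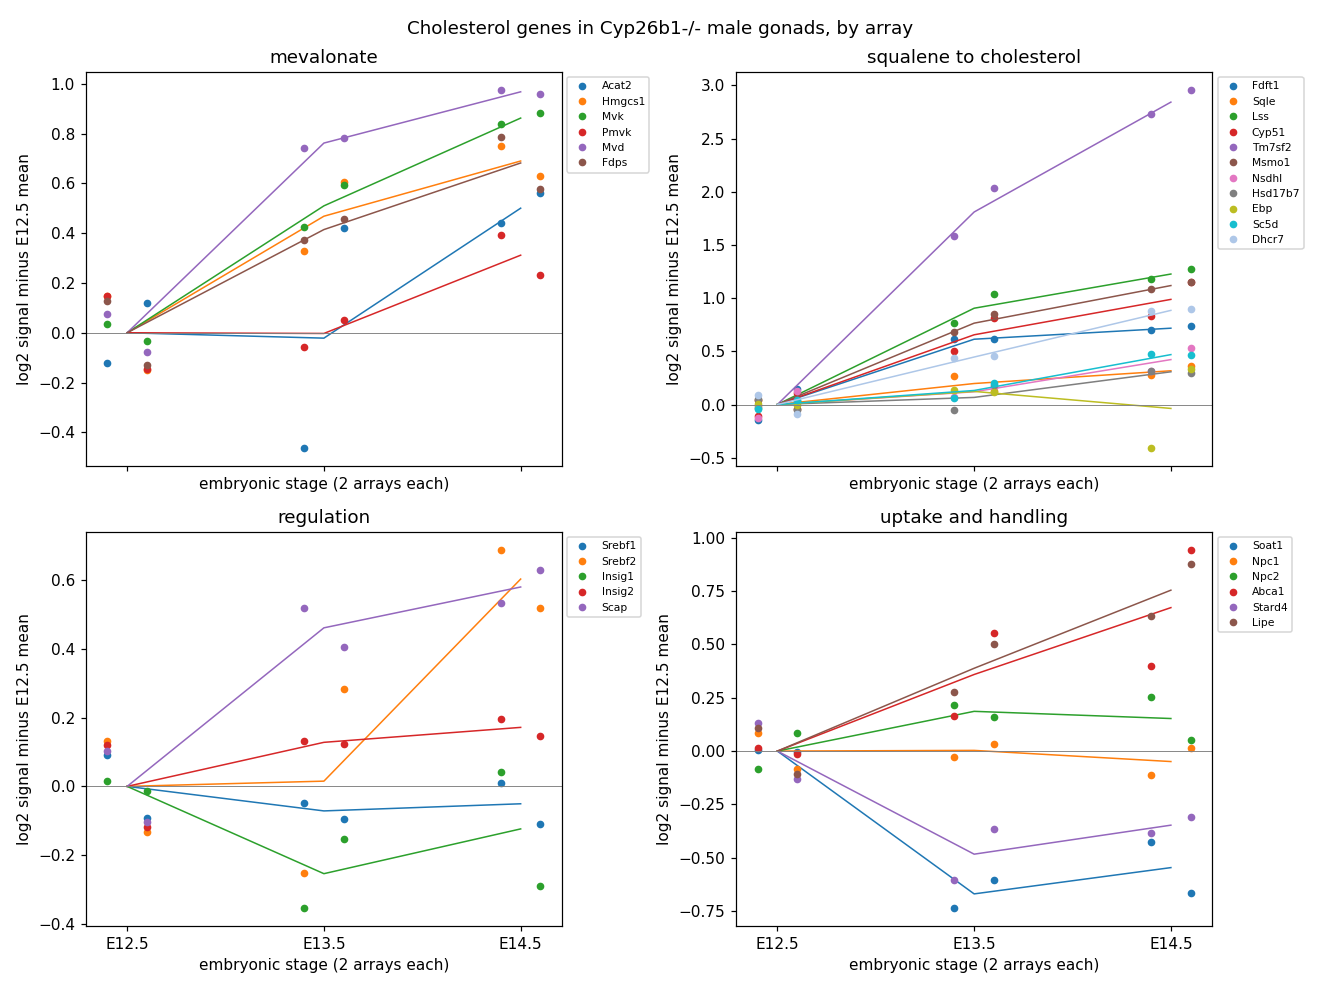
Log2 signal of each gene on each array minus its mean over the 2 E12.5 arrays (y axis), by embryonic stage (x axis), in 4 panels by role. Points are single arrays and lines join stage means. Tm7sf2 rises furthest, reaching 2.84 above its E12.5 mean, and Soat1 and Stard4 lie below their E12.5 values on all 4 later arrays.

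At E13.5 against E12.5, 9 of 28 genes rose, 2 fell and 17 did not pass, with a median of 0.19, against 0.05 for all genes. Among all genes, 31.7% passed in this comparison, 18.4% higher and 13.3% lower. The 9 that rose were Mvk, Mvd, Fdft1, Lss, Cyp51, Tm7sf2, Msmo1, Dhcr7 and Scap, and the 2 that fell were Soat1 and Stard4. Leaving out single arrays changed these counts most: 5 genes passed without array 1 of E12.5, 5 without array 2 of E12.5, 4 without array 1 of E13.5 and 2 (Lss and Tm7sf2) without array 2 of E13.5. Calls over all genes fell as well, to 2156, 2511, 1951 and 1133 in the same order, against 4203 with all arrays. The median of the 28 genes was 0.34 without array 1 of E13.5 and 0.11 with each array's median in place of its 75th percentile. At E14.5 against E12.5, 10 passed without array 2 of E12.5 and 9 without array 2 of E14.5. Calls over all genes were 4350 and 3804 in these fits, against 6146 with all arrays.

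At E14.5 against E13.5, the comparison within 1 slide, 0 of 28 genes passed limma's test. Only 7 of 13268 genes passed (0.0528%). At an unadjusted p under 0.05 there were 8 of the 28 genes and 2439 of all genes. The differences nevertheless lay mostly on 1 side of zero: 25 of 28 were positive, with a median of 0.25, against 46.6% positive and a median of -0.02 over all genes. Both E14.5 arrays lay above both E13.5 arrays for 20 of 28 genes, and for 26.4% of all genes. In synthesis this held for 16 of 17 genes, all but Ebp, and in uptake and handling for 1 of 6 (Lipe). These genes share arrays, so their counts do not stand for independent observations.

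**Figure D2:**
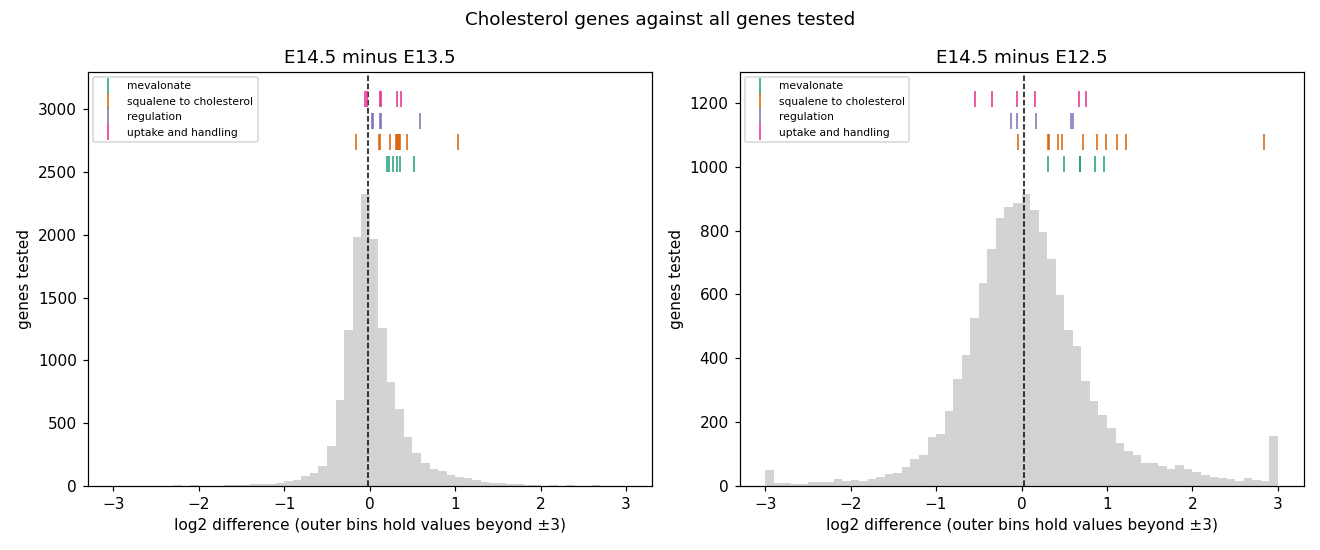
Histograms of the log2 difference of all 13268 genes (grey; y axis, number of genes) at E14.5 minus E13.5 and E14.5 minus E12.5, with the cholesterol genes as coloured ticks by role. The dashed line is the median of all genes, -0.02 and 0.03, and most mevalonate and squalene-to-cholesterol ticks lie to the right of it.

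In the mevalonate steps, 4 of 6 measured genes rose at E14.5 against E12.5 and 0 fell (median 0.69). Mvd decarboxylates mevalonate diphosphate to the first isoprenoid unit. Its log2 signal was 0.77 and 0.61 on the E12.5 arrays, 1.43 and 1.47 on the E13.5 arrays, and 1.67 and 1.65 on the E14.5 arrays. The 3 stages did not overlap, and most of the difference lay between E12.5 and E13.5. Mvd was 1.96-fold higher at E14.5 than at E12.5 (log2 difference 0.97 ± 0.11 SE, limma adjusted p = 0.00173), and 0.76 ± 0.11 higher at E13.5 (adjusted p = 0.00628).

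Mvk, the kinase that phosphorylates mevalonate, gave -0.16 and -0.23 at E12.5, then 0.23 and 0.40 at E13.5, then 0.65 and 0.69 at E14.5. The stages again stood apart, with the larger step before E13.5. The rise was 1.82-fold at E14.5 against E12.5 (0.86 ± 0.11, limma adjusted p = 0.00262) and 0.51 ± 0.11 at E13.5 against E12.5 (adjusted p = 0.0205). Fdps makes farnesyl diphosphate, the precursor of squalene. It stood at 3.66 and 3.40 at E12.5, then 3.91 and 3.99 at E13.5, then 4.32 and 4.11 at E14.5, without overlap between stages. Fdps rose 1.60-fold at E14.5 against E12.5 (0.68 ± 0.14, limma adjusted p = 0.0107), and its difference of 0.41 at E13.5 against E12.5 did not pass (adjusted p = 0.0656).

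Hmgcs1 makes HMG-CoA from acetyl-CoA units, and its promoter is the one above with the sterol element letters. The brightest probe read 4.31 and 4.01 at E12.5, then 4.49 and 4.77 at E13.5, then 4.91 and 4.79 at E14.5. Stages stood apart on this probe, and the gene was 1.61-fold higher at E14.5 than at E12.5 (0.69 ± 0.16, limma adjusted p = 0.0152). The second Hmgcs1 probe moved the other way, with -2.19 and -2.55 at E14.5 against -1.78 and -2.36 at E12.5, values that overlap (difference -0.30). With the mean of the probes the difference was 0.20 and did not pass (limma adjusted p = 0.45), so the Hmgcs1 rise rests on its brightest probe.

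Of the mevalonate genes that did not pass, Pmvk, which adds the second phosphate to mevalonate, read 2.66 and 2.36 at E12.5, then 2.45 and 2.56 at E13.5, then 2.90 and 2.74 at E14.5. Its difference at E14.5 against E12.5 was 0.31 ± 0.14 (limma adjusted p = 0.117). Acat2, the cytosolic thiolase at the start of the pathway, had the widest gap between duplicates of any of the 28 genes at E13.5. Its values were -2.20 and -1.96 at E12.5, then -2.55 and -1.66 at E13.5, then -1.64 and -1.52 at E14.5, with a difference of 0.50 ± 0.28 at E14.5 against E12.5 (limma adjusted p = 0.194). It passed under 3 of 15 alternatives.

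From the making of squalene to cholesterol, 8 of 11 genes rose at E14.5 against E12.5 and 0 fell (median 0.72). Tm7sf2, a sterol reductase that acts on the product of Cyp51, changed most of the 28 genes. Its single probe (A_52_P35064) read 0.18 and 0.20 at E12.5, then 1.77 and 2.23 at E13.5, then 2.92 and 3.15 at E14.5. Each stage stood above the one before, with the closest gap between E13.5 and E14.5. Tm7sf2 was 7.17-fold higher at E14.5 than at E12.5 (log2 difference 2.84 ± 0.18, limma adjusted p = 0.000524) and 3.51-fold higher at E13.5 than at E12.5 (1.81 ± 0.18, adjusted p = 0.00289). At E14.5 against E13.5 it was 2.05-fold higher (1.03 ± 0.18) and did not pass (limma adjusted p = 0.0907). That difference passed with normexp background correction (adjusted p = 0.0131) and with a trended, robust variance prior (0.0204), and over all alternatives its limma adjusted p ran up to 0.322.

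Lss closes squalene epoxide into lanosterol, the first sterol of the pathway. It read -0.28 and -0.21 at E12.5, then 0.52 and 0.80 at E13.5, then 0.94 and 1.03 at E14.5, and both of its probes rose (1.23 and 1.14). The gene was 2.34-fold higher at E14.5 than at E12.5 (1.23 ± 0.13, limma adjusted p = 0.0015) and 0.91 ± 0.13 higher at E13.5 (adjusted p = 0.00653). Cyp51 removes a methyl group from lanosterol. Its values of -0.64 and -0.42 at E12.5, then -0.03 and 0.28 at E13.5, then 0.30 and 0.62 at E14.5 stood apart at each step, the last step narrowly. Cyp51 rose 1.98-fold at E14.5 against E12.5 (0.99 ± 0.17, limma adjusted p = 0.00673), and its other 2 probes gave 0.67 and 0.52.

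Msmo1, an oxidase that removes further methyl groups from the sterol, read 3.26 and 3.18 at E12.5, then 3.90 and 4.07 at E13.5, then 4.31 and 4.38 at E14.5. The duplicates lay close together and the stages apart. Msmo1 was 2.17-fold higher at E14.5 than at E12.5 (1.12 ± 0.11, limma adjusted p = 0.0013) and 0.76 ± 0.11 higher at E13.5 (adjusted p = 0.00706). Nsdhl works with Msmo1 on the same methyl groups. It read -0.08 and 0.18 at E12.5, then 0.12 and 0.22 at E13.5, then 0.37 and 0.57 at E14.5, with overlap of the earlier stages only. Its rise of 1.34-fold at E14.5 against E12.5 passed narrowly (0.42 ± 0.14, limma adjusted p = 0.0493), and its dimmer probes gave 0.62 and 0.76.

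Fdft1 joins farnesyl units into squalene. Its log2 signal was 1.95 and 2.23 at E12.5, then 2.70 and 2.70 at E13.5, then 2.79 and 2.82 at E14.5, so that most of the difference lay before E13.5. Fdft1 rose 1.64-fold at E14.5 against E12.5 (0.72 ± 0.13, limma adjusted p = 0.00695). At the end of the pathway, Dhcr7 reduces dehydrocholesterol to cholesterol. Dhcr7 read 3.04 and 2.86 at E12.5, then 3.39 and 3.40 at E13.5, then 3.83 and 3.84 at E14.5, with even steps and no overlap. It was 1.85-fold higher at E14.5 than at E12.5 (0.88 ± 0.11, limma adjusted p = 0.00235). Sc5d, the desaturase just before it, read 0.01 and 0.10 at E12.5, then 0.11 and 0.26 at E13.5, then 0.53 and 0.52 at E14.5. The E14.5 arrays stood clear of the others, while E12.5 and E13.5 were separated only narrowly. Sc5d rose 1.38-fold at E14.5 against E12.5 (0.47 ± 0.11, limma adjusted p = 0.0165).

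The 3 genes of this stretch that did not pass at E14.5 against E12.5 were Sqle, Hsd17b7 and Ebp. Sqle, the epoxidase that acts on squalene, differed by 0.32 ± 0.11 (limma adjusted p = 0.0590), and Hsd17b7, a sterol ketone reductase, by 0.31 ± 0.12 (adjusted p = 0.0832). The second Hsd17b7 probe gave 0.83, and the gene passed when both probes were averaged (0.57, limma adjusted p = 0.0158) and with normexp background correction (0.49, adjusted p = 0.00906). Sqle passed under 2 of 15 alternatives. Ebp shifts a double bond in the sterol ring, and its E14.5 duplicates were the widest apart of the 28 genes at that stage. It read 2.43 and 3.18 at E14.5, against 2.84 and 2.84 at E12.5, and differed by -0.04 ± 0.24.

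**Figure D3:**
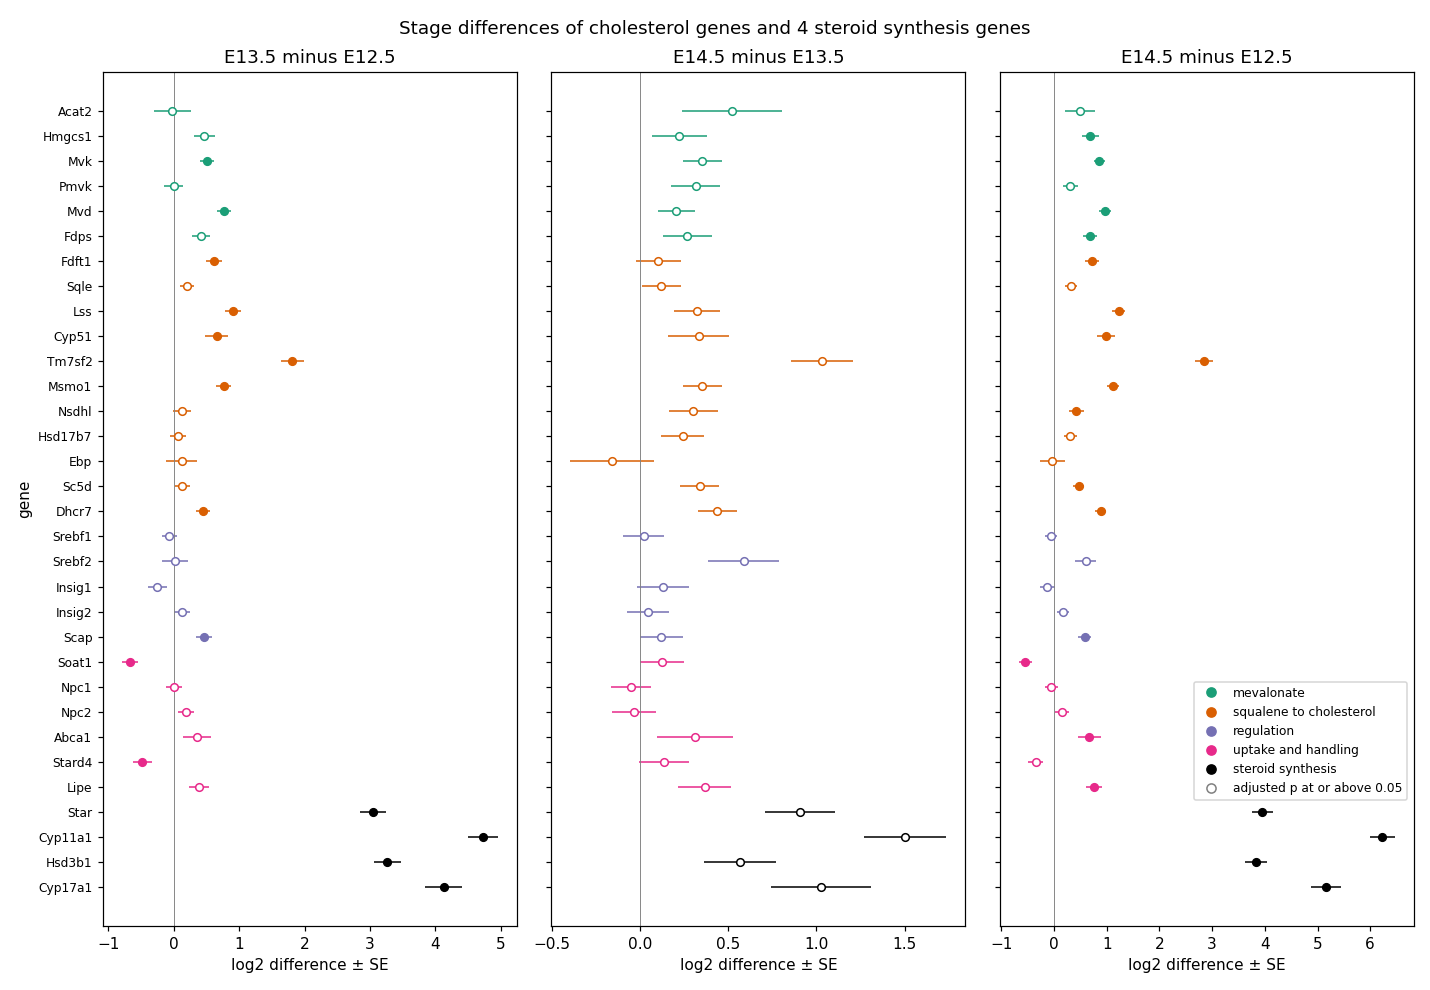
Log2 difference with its SE (x axis) of each cholesterol gene and of 4 steroid synthesis genes (rows) for the 3 pairs of stages. Filled points passed limma's adjusted p of 0.05, and open points did not. Filled points are found in the comparisons with E12.5, and every cholesterol gene in the E14.5 minus E13.5 panel is open.

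Among the regulators, Scap was the 1 of 5 that rose. Scap, the SREBP escort, read 4.38 and 4.18 at E12.5, then 4.80 and 4.69 at E13.5, then 4.81 and 4.91 at E14.5. Later arrays all lay above the E12.5 arrays. The rise was 1.49-fold at E14.5 against E12.5 (0.58 ± 0.12, limma adjusted p = 0.0120), and the 0.46 at E13.5 against E12.5 (adjusted p = 0.0347) was lost under 11 of 15 alternatives.

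Srebf2 encodes the SREBP best known for the cholesterol genes. It read 0.43 and 0.17 at E12.5, then 0.05 and 0.58 at E13.5, then 0.99 and 0.82 at E14.5. On this probe the E13.5 pair spanned the E12.5 pair, and both E14.5 arrays lay above all others. A second, much dimmer Srebf2 probe was highest at E13.5. It read -4.79 and -5.34 at E12.5, then -4.19 and -4.31 at E13.5, then -4.44 and -4.79 at E14.5. The test used the brighter probe. The difference of 0.60 ± 0.20 at E14.5 against E12.5 did not pass (limma adjusted p = 0.0530), and it passed under 6 of 15 alternatives. Srebf1, whose protein acts more on fatty acid genes, ranged from 3.56 to 3.76 over all 6 arrays, with overlapping stages and a difference of -0.05 ± 0.12.

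Insig1 and Insig2 encode the proteins that retain SCAP. Insig1 read -1.01 and -1.04 at E12.5, then -1.38 and -1.18 at E13.5, then -0.98 and -1.31 at E14.5, with overlap between E12.5 and E14.5. Insig2 read 0.66 and 0.42 at E12.5, then 0.67 and 0.66 at E13.5, then 0.74 and 0.69 at E14.5, a narrow range. Neither passed at E14.5 against E12.5 (-0.12 ± 0.15 and 0.17 ± 0.12), and their probes disagreed in direction. The second Insig1 probe gave 0.47 and the second Insig2 probe -0.71.

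Genes of uptake and handling moved in both directions. Soat1 esterifies cholesterol for storage. It read 2.51 and 2.51 at E12.5, then 1.78 and 1.91 at E13.5, then 2.08 and 1.84 at E14.5. All later arrays lay below the E12.5 arrays, while E13.5 and E14.5 overlapped. Soat1 was 1.59-fold lower at E13.5 than at E12.5 (-0.67 ± 0.13, limma adjusted p = 0.0135) and 1.46-fold lower at E14.5 than at E12.5 (-0.55 ± 0.13, adjusted p = 0.0159). Its other probes gave -0.59 and 0.03 at E14.5 against E12.5, so 1 of 3 probes did not share the fall.

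Stard4, a protein that moves cholesterol between membranes, read 0.58 and 0.31 at E12.5, then -0.16 and 0.08 at E13.5, then 0.06 and 0.13 at E14.5. It was also lower on every later array. The fall passed at E13.5 against E12.5 (-0.48 ± 0.14, 1.40-fold lower, limma adjusted p = 0.0483), was lost under 9 of 15 alternatives, and at E14.5 against E12.5 the difference of -0.35 ± 0.14 did not pass (adjusted p = 0.0934), though it passed under 4 of 15 alternatives. All 3 Stard4 probes were lower at E14.5 than at E12.5.

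Lipe encodes hormone-sensitive lipase, which frees cholesterol from its esters in steroid-making cells. Lipe read -2.68 and -2.89 at E12.5, then -2.51 and -2.29 at E13.5, then -2.16 and -1.91 at E14.5. It rose without overlap between stages, 1.69-fold at E14.5 against E12.5 (0.75 ± 0.15, limma adjusted p = 0.00997), and its second probe gave 0.77. Abca1, which exports cholesterol from cells, read 0.06 and 0.03 at E12.5, then 0.21 and 0.60 at E13.5, then 0.45 and 0.99 at E14.5. Its later duplicates were far apart and the E13.5 and E14.5 arrays overlapped, and the 1.59-fold rise at E14.5 against E12.5 passed narrowly (0.67 ± 0.22, limma adjusted p = 0.0461). Npc1 and Npc2, which together release cholesterol from lysosomes, did not pass, with differences at E14.5 against E12.5 of -0.05 ± 0.12 for Npc1 and 0.15 ± 0.12 for Npc2 (limma adjusted p = 0.75 and 0.35).

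Several probes were present for 15 of the 28 genes. In 11 of these all probes of the gene had differences of the same sign at E14.5 against E12.5, and in Hmgcs1, Insig1, Insig2 and Soat1 they did not. Among the genes with probes of 1 sign, Fdft1 had the widest spread, with 0.72 on the brightest probe and 1.53 on a dim probe that was above background on 5 of 6 arrays.

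**Figure D4:**
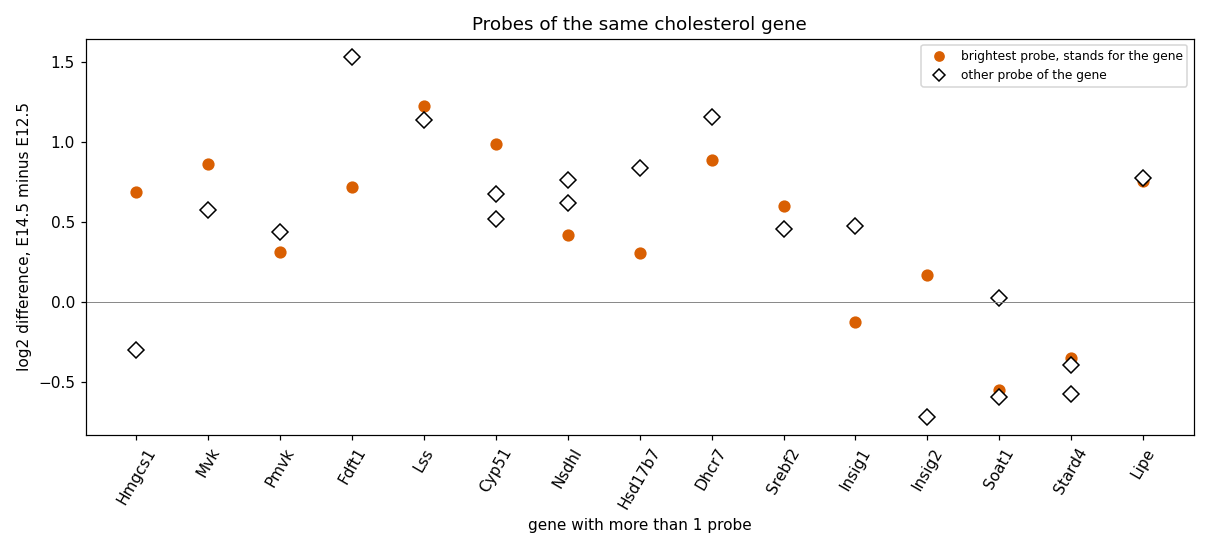
Log2 difference at E14.5 minus E12.5 (y axis) for each probe of the 15 genes with several probes (x axis). Filled circles are the brightest probe, which stands for the gene, and open diamonds are its other probes. Hmgcs1, Insig1, Insig2 and Soat1 have probes on both sides of zero.

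The steroid synthesis genes, measured on the same arrays, were set beside the cholesterol genes to ask whether both moved over the same stages. Star, which brings cholesterol into mitochondria, read -2.14 and -1.81 at E12.5, then 0.99 and 1.15 at E13.5, then 1.74 and 2.21 at E14.5. Cyp11a1, which cleaves cholesterol to pregnenolone, read -2.18 and -2.12, then 2.31 and 2.85, then 3.84 and 4.33 at these stages. Both stood apart at every stage, with their main step between E12.5 and E13.5. The difference at E13.5 against E12.5 was 3.05 for Star and 4.73 for Cyp11a1, and at E14.5 against E13.5 it was 0.91 and 1.50. Differences at E14.5 against E12.5 were 3.95 for Star, 6.23 for Cyp11a1, 5.16 for Cyp17a1 and 3.83 for Hsd3b1.

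Of 12 steroid synthesis genes, 10 rose at E14.5 against E12.5 and 0 fell (median 1.80), where 46.3% of all genes passed and 25.6% were higher. At E13.5 against E12.5, 9 rose (median 1.24), where 31.7% of all genes passed and 18.4% were higher. Lhcgr, 1 of these genes, was above background on 0 E12.5 arrays and was kept only through the later stages, so its rise was set by the filter. Without it 9 of 11 rose at E14.5 against E12.5 (median 1.70) and 8 of 11 at E13.5 against E12.5 (median 1.17). At E14.5 against E13.5, 0 of 12 passed limma's test, 8 had an unadjusted p under 0.05, and 12 of 12 were positive (median 0.55). The 17 cholesterol synthesis genes had medians of 0.45 at E13.5 against E12.5, 0.31 at E14.5 against E13.5 and 0.69 at E14.5 against E12.5. Both lists had their higher median before E13.5 and positive medians after it, and the cholesterol synthesis medians were the smaller in all 3 comparisons. Tm7sf2 had the largest differences of the cholesterol genes in all 3, at 1.81, 1.03 and 2.84. Whether the size of the changes differed between the lists was not tested.

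A wider list of 30 genes of sterol transport, receptors and sensing was counted beside the 29. Of 27 kept, 10 rose and 4 fell at E14.5 against E12.5, with differences ranging from -0.86 to 2.39 and a median of 0.31. Of all genes 46.3% passed there. At E13.5 against E12.5, where 31.7% of all genes passed, 7 rose and 4 fell, and at E14.5 against E13.5 0 passed limma's test, with 6 at an unadjusted p under 0.05. Gramd1b, which moves cholesterol from the plasma membrane to the endoplasmic reticulum, rose 2.26-fold at E14.5 against E12.5 (limma adjusted p = 0.00115). Lipa, the lysosomal enzyme that frees cholesterol from esters, rose 1.92-fold (adjusted p = 0.00496), and Nceh1, another cholesterol ester hydrolase, rose 1.75-fold (adjusted p = 0.00378). Abcg1, a cholesterol exporter, fell by 0.86 on the log2 scale (limma adjusted p = 0.00243), whereas Abca1 rose. Nceh1 and Abcg1 were chosen after their values were seen.

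Cell type markers also moved between the stages, and their part in the cholesterol gene differences was not tested. Summed over its 6 markers and given relative to the 75th percentile, the fetal Leydig signal was 3.46 and 4.50 at E12.5, then 48.9 and 58.2 at E13.5, then 93.9 and 128 at E14.5. This sum was higher at each later stage, and all of its markers but Insl3 are also in the steroid synthesis list above. The Sertoli sum was 104 and 125 at E12.5 and between 147 and 157 on the later arrays. The germ cell sum was 35.4 and 45.9 at E12.5 and between 58.5 and 74.8 later. Both were higher on every later array, but a sum follows its brightest markers. Cst9, the brightest Sertoli marker, rose at E14.5 against E12.5 (log2 difference 0.84, limma adjusted p = 0.0201). Cldn11 also rose (1.80, limma adjusted p = 0.000587), whereas Sox9 fell (-1.50, limma adjusted p = 0.0031). Amh, Dhh and Ptgds did not pass (0.03, -0.20 and 0.04). Of the germ cell markers, Ddx4, Dazl, Mael and Tdrd1 rose over the same stages, and Pou5f1 and Dppa3 did not pass (-0.15 and -0.01). The erythroid sum was lower at each later stage, with 112 and 146 at E12.5, then 67.4 and 49.5 at E13.5, then 31.1 and 15.9 at E14.5. The macrophage sum, over 4 markers, was 1.64 and 1.84 at E12.5, then 2.32 and 1.94 at E13.5, then 3.29 and 3.83 at E14.5. Lyz2, its brightest marker, rose at E14.5 against E12.5 (1.33, limma adjusted p = 0.00305), as did C1qa (0.62, limma adjusted p = 0.0124). Adgre1 and Mrc1 did not pass (-0.06 and 0.45). The mesonephros sum was lower on every later array, with 1.03 and 1.38 at E12.5, then 0.796 and 0.568 at E13.5, then 0.671 and 0.336 at E14.5. Lhx1, its brightest marker at E12.5, fell at E14.5 against E12.5 (-2.70, limma adjusted p = 0.00199). Calb1 and Gata3 also fell (-2.10 and -0.66), and Pax8 and Cdh16 did not pass (-0.23 and 0.52). Pax2 rose (0.82, limma adjusted p = 0.0167) but was dim, above background on 1 of 2 E12.5 arrays. The adrenal sum was 3.56 and 3.14 at E12.5 and between 2.40 and 2.71 later. It came mostly from Nr0b1, which fell at E14.5 against E12.5 (-0.41, limma adjusted p = 0.0426). Mc2r was dimmer and did not pass (-0.20), and Cyp21a1 and Cyp11b2 were above background on 0 arrays. The endothelial sum was 11.6 and 13.1 at E12.5 and between 9.91 and 10.98 later. Adrenal and endothelial sums were both lower on every later array.

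The comparisons with E12.5 depended in part on scaling. With each array's median in place of its 75th percentile, the median of all genes at E14.5 against E12.5 was -0.13, and 39.5% of the genes that passed were higher, against 55.2% with the 75th percentile. Under that scaling 11 of 28 cholesterol genes rose and 2 fell (median 0.38), and 2294 of 13268 genes rose and 3516 fell. At E13.5 against E12.5, 7 cholesterol genes rose and 2 fell, beside 1675 and 1867 of all genes. There 47.3% of all genes that passed were higher, against 58% with the 75th percentile. Of the 16 cholesterol genes that passed at E14.5 against E12.5, 9 passed under all 15 alternatives: Mvk, Mvd, Fdps, Fdft1, Lss, Cyp51, Tm7sf2, Msmo1 and Dhcr7.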

How the data were processed

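Male gonads of Cyp26b1-/- embryos were measured on 6 one-colour arrays. The authors deposited scanner output of Agilent Feature Extraction 9.5, whose processed intensity, per the file headers, had its background subtracted and no scaling between arrays. The authors' deposited table holds 1 linear ratio per probe and stage, with a denominator that is not stated, and was used only as an alternative.

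Outlier spots were left out, intensities were log2-transformed, the 75th percentile of each array was subtracted and repeated spots were averaged. Of 41174 probes, 21 were missing on an array. RefSeq accessions named 22943 probes of 16354 genes. The brightest probe stood for a gene. Genes whose probe was well above background on both duplicates of any stage (13268) were tested with limma 3.58.1 in R 4.3.3 (lmFit, eBayes, two-sided, 3 residual degrees of freedom, 6 arrays). P-values were adjusted over all these genes, with no fold minimum, and measure only the spread between duplicates.

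The genes and lists were chosen with earlier results of these data known. All 29 genes are accounted for. Values per array are given for genes that passed in any comparison, whose probes disagreed in sign, or at either end of their role. From the wider list the rule takes the 4 largest changes, of which some are not reported here. Alternatives were normexp with an offset of 50, quantile and median scaling, other background filters, probe rules and variance priors, a replicate block, 4 arrays only, and leaving out each array. Figures used matplotlib 3.10.9.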

Additional observations from a re-analysis of the deposited data

How the results depend on the processing

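Alternatives moved the counts of calls more than the directions: no called difference changed sign under any alternative run on the 28 genes. For E13.5 against E12.5 (11 cholesterol genes and 4203 of 13268 genes in all), 7 and 2808 of 16354 passed without the background filter. When all probes were tested, a larger table of 28389 features, 10 cholesterol genes and 7777 features passed there. For E14.5 against E12.5 (16 and 6146 of 13268), all probes gave 14 and 11401 of 28389. For E14.5 against E13.5 (0 and 7), normexp background correction gave 1 and 383, a trended robust prior 1 and 346, and median scaling 0 and 92. In that comparison 0 genes passed without the background filter, with the filter on all 6 arrays, with the mean of probes or with the 4 arrays of these stages only, and 1 passed with all probes. The cause of these shifts was not tested.

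Leaving out each array gave 2 to 9 cholesterol genes and 1133 to 3826 genes in all at E13.5 against E12.5, 0 and 0 to 100 at E14.5 against E13.5, and 9 to 17 and 3804 to 5318 at E14.5 against E12.5. A stage left with 1 array is assumed to vary like the others. Calls at E14.5 against E12.5 that were lost under at least 1 alternative were those of Nsdhl (10 of 15), Abca1 (7), Hmgcs1 and Sc5d (4 each), Scap and Soat1 (3 each) and Lipe (2). The replicate block gave 9 cholesterol genes and 3731 genes at E13.5 against E12.5, 0 and 1 at E14.5 against E13.5, and 16 and 5737 for the whole window. Arrays with the same number share only a number: their deviations correlated across genes at -0.04, -0.06 and 0.23.

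In the authors' deposited table the median log2 difference of the 28 genes was 0.29 at E13.5 against E12.5, 0.14 at E14.5 against E13.5 and 0.52 for the whole window, beside 0.19, 0.25 and 0.54 here, and its all-gene medians were 0.148, -0.134 and 0.0113.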
